A study of Rattus norvegicus with 12 samples.

Results

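Regulators of G-protein signalling (RGS proteins) were followed in rat lung through 9 genes, Rgs1, Rgs2, Rgs3, Rgs4, Rgs5, Rgs10, Rgs14, Rgs16 and Rgs19. They were taken as every probe set whose platform annotation names one of these genes and no other, which gave 13 of the 31099 probe sets on the array and 9 of the 14218 genes so named. Of these 13, 12 were bright enough to be tested, and they covered all 9 genes. The data are MAS5 intensities from right lungs of 12 rats, with 3 arrays in each of 4 groups. The groups were HTV-ventilated Dahl salt-sensitive rats (SS HTV), control Dahl salt-sensitive rats (SS control), HTV-ventilated Brown Norway rats (BN HTV) and control Brown Norway rats (BN control). The Dahl salt-sensitive rat is an inbred strain that becomes hypertensive on a high-salt diet, and the Brown Norway rat is an inbred strain often paired with it. The labels do not spell out HTV, describe the gas as room air for all 12 arrays, give body weights of 250 to 350 g, and give no age, sex, ventilator setting or time. The pulmonary vessels of all animals were flushed with buffered saline before the lung was frozen, and RNA came from whole lung tissue. Each title carries a different number, and the p-values rest on the spread between these arrays.

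Heterotrimeric G proteins carry signals from cell-surface receptors while their alpha subunit holds GTP. RGS proteins bind the active alpha subunit and speed up GTP hydrolysis, which shortens the signal. The family acts mainly on the inhibitory (Gi) and phospholipase-activating (Gq) classes, and is known for setting the response to vasoconstrictors in vessel walls and to chemokines in leukocytes. Rgs1, Rgs2, Rgs3, Rgs4, Rgs5 and Rgs16 belong to the subfamily of small RGS proteins named R4, Rgs10 and Rgs14 to the R12 subfamily, and Rgs19 to the RZ subfamily.

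Differences are on the scale of log2(intensity + 16) and carry limma's moderated standard error (SE), with adjusted p-values from limma and Benjamini-Hochberg adjustment over all 18626 tested probe sets. This scale understates changes of dim probe sets, and intensities of different probe sets have no common scale. The number of arrays, 3 in each group, limits the precision. Median intensity was 58.5 to 68.1 per array. The 8 lung epithelial markers were all tested, with a summed intensity of 19390 to 26450 per array. One array stood apart from the rest. SS control 3 had the lowest mean correlation with its own group (0.949, against 0.963 to 0.975 in the other arrays) and the lowest array weight (0.286). At 36 probe sets the other 5 SS arrays were separated from all BN arrays by over 1.5 log2 units, and SS control 3 lay past the midpoint towards BN at 13 of them. Each of the other 11 arrays was scored at its own 21 to 25 such probe sets, and the count past the midpoint was 0 for each. SS control 3 was kept as labelled, and the calls lost or gained without it are given for the RGS probe sets, as are calls of other named genes that were lost. For the lists of other genes this check was added after the values were seen, and only its changes to the HTV counts within a strain are given in full.

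In HTV lungs of both strains 2 of the 9 genes rose, Rgs1 and Rgs16, and 1 fell, Rgs3. Among the 12 tested probe sets, 2 were higher and 2 lower in SS HTV against SS control lungs, which is 4 of 12 where 8.06% of all tested probe sets passed (3.9% higher and 4.16% lower). In BN lungs 2 were higher and 1 lower, 3 of 12 where 5.86% passed (3% higher and 2.86% lower). The arrays of the groups did not overlap at 2 probe sets higher and 4 lower in SS lungs, where 14% and 15.8% of all tested probe sets were so. In BN lungs they did not overlap at 2 higher and 3 lower, where 10.9% and 15.7% were so. The median difference of the 12 probe sets was -0.16 in SS and -0.07 in BN lungs, against -0.01 and -0.03 over all tested probe sets. Both lower calls in SS lungs were probe sets of Rgs3. The members were chosen with earlier results of these data known, so the shares over all probe sets are given for scale only.

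**Figure D1:**
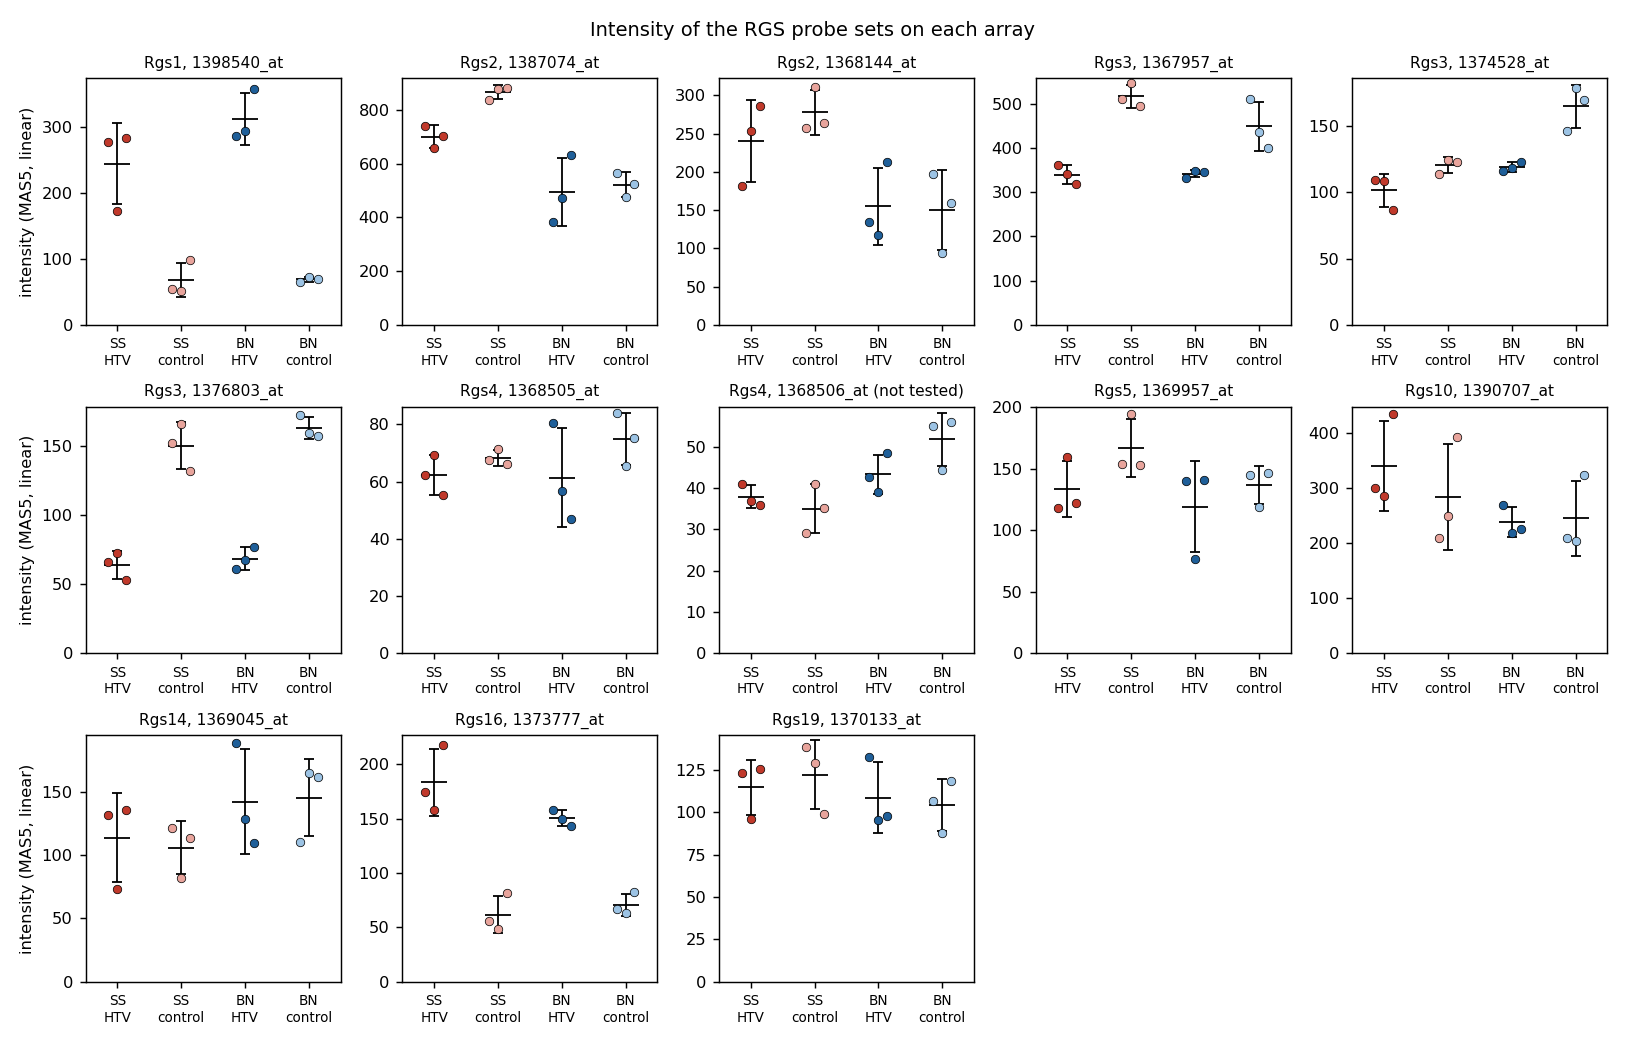
MAS5 intensity (linear scale from 0, one panel per probe set) on each of the 12 arrays; points are single arrays, horizontal bars the group mean and error bars 1 SD (n = 3). Rgs1 and Rgs16 sit higher and Rgs3 (1367957_at and 1376803_at) lower in HTV than in control arrays of both strains without overlap, and Rgs2 (1387074_at) sits higher in SS than in BN arrays.

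Rgs1 and Rgs16 are shown first with the sequence upstream of their annotated starts because they rose together, and Rgs2 beside them because it is close to Rgs1 in the genome and did not pass the test for HTV. In the GRCr8 assembly, 5 of the 9 genes share chromosome 13. Rgs13 is the only protein-coding gene annotated between Rgs2 and Rgs1, Rgs4 lies next to Rgs5, and Rgs16 lies next to Rgs8. All 9 genes matched the RefSeq promoter table of GRCr8, and the 250 bases before the start are printed 5′ to 3′ on the gene's strand. Capitals mark matches to TGACG on either strand, the core of the cyclic AMP response element (CRE), to which CREB and ATF factors can bind. Rgs1 lies on the minus strand (chr13:58573188-58573437), Rgs16 on the plus strand (chr13:68437870-68438119) and Rgs2 on the minus strand (chr13:58352667-58352916).
Rgs1: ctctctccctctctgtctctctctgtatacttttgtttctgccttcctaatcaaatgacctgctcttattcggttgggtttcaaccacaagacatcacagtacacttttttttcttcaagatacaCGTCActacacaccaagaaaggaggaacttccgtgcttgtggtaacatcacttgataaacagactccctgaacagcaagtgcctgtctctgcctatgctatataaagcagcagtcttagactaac
Rgs16: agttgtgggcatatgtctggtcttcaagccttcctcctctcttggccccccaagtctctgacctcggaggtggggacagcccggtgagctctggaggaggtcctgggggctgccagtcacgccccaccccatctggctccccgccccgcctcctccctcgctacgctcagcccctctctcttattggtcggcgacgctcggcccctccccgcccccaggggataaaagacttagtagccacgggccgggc
Rgs2: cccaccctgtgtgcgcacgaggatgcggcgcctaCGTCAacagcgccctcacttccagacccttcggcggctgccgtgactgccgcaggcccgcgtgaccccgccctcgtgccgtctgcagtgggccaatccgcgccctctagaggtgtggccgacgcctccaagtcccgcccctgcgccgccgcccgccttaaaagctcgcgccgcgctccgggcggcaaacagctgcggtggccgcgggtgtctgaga
Rgs1 and Rgs2 each held 1 match to TGACG, beginning 125 and 216 bases before the start, and Rgs16 held 0. A match was present in 18.2% of 33469 promoters in windows of the same length. The AP-1 motif TGANTCA was in 0 of these 3 windows and in 6.34% of all promoters. A looser NF-kB-like motif, 3 Gs and a pair of Cs around an open centre, had 4 matches in Rgs16, 0 in Rgs1 and 1 in Rgs2, and was present in 42.3% of all promoters. A loose CArG-like motif, which resembles the serum response element, was in 65.1% of all promoters, with 3 matches in Rgs16, 1 in Rgs1 and 2 in Rgs2, and the E-box CANNTG was in 65.5%, with 2, 3 and 1 matches. Both strands were searched, and matches of different motifs may overlap.

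Rgs1 damps chemokine receptor signals in lymphocytes and is induced on leukocyte activation. Its intensity (1398540_at) was 277.7, 173.3 and 282.9 on the SS HTV arrays, against 54.7, 50.8 and 98.2 on the SS control arrays. In the other strain it was 286.2, 293.3 and 357.9 on the BN HTV arrays, against 65.1, 72.3 and 69.7 on the BN control arrays. Every HTV array lay above every control array of both strains, and SS HTV 2 was the lowest of the HTV arrays and SS control 3 the highest of the controls. The rise was 1.65 ± 0.21 (SE) in SS lungs, 3.14-fold on this scale (limma adjusted p = 0.000485), and 1.94 ± 0.21 in BN lungs, 3.85-fold (limma adjusted p = 0.000165). Averaged over the strains it was 1.80 ± 0.15 (limma adjusted p = 5.34e-06). It passed with each of the 12 arrays left out in turn, at 1.51 to 1.89 in SS lungs and 1.85 to 2.001 in BN lungs. In whole lung tissue more cells of a type cannot be told apart from more RNA per cell, here and for every gene below.

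Rgs16 is an R4 protein that acts on Gi and Gq and is induced by inflammatory stimuli in several cell types. Its intensity (1373777_at) was 174.6, 158 and 218 on the SS HTV arrays, against 55.8, 48.3 and 81.3 on the SS control arrays. The BN HTV arrays had 158.1, 149.7 and 143.5, against 66.5, 63.6 and 82.3 on the BN control arrays. HTV and control arrays did not overlap in either strain, and SS HTV 3 was the highest of all. The rise was 1.37 ± 0.17 in SS lungs, 2.58-fold (limma adjusted p = 0.00034), and 0.94 ± 0.17 in BN lungs, 1.92-fold (limma adjusted p = 0.00473). It too passed with each array left out in turn, at 1.24 to 1.54 in SS lungs and 0.89 to 1.04 in BN lungs. The SS rise minus the BN rise was 0.43 ± 0.23, with a 95% interval of -0.08 to 0.93, and did not pass (limma adjusted p = 0.647).

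**Figure D2:**
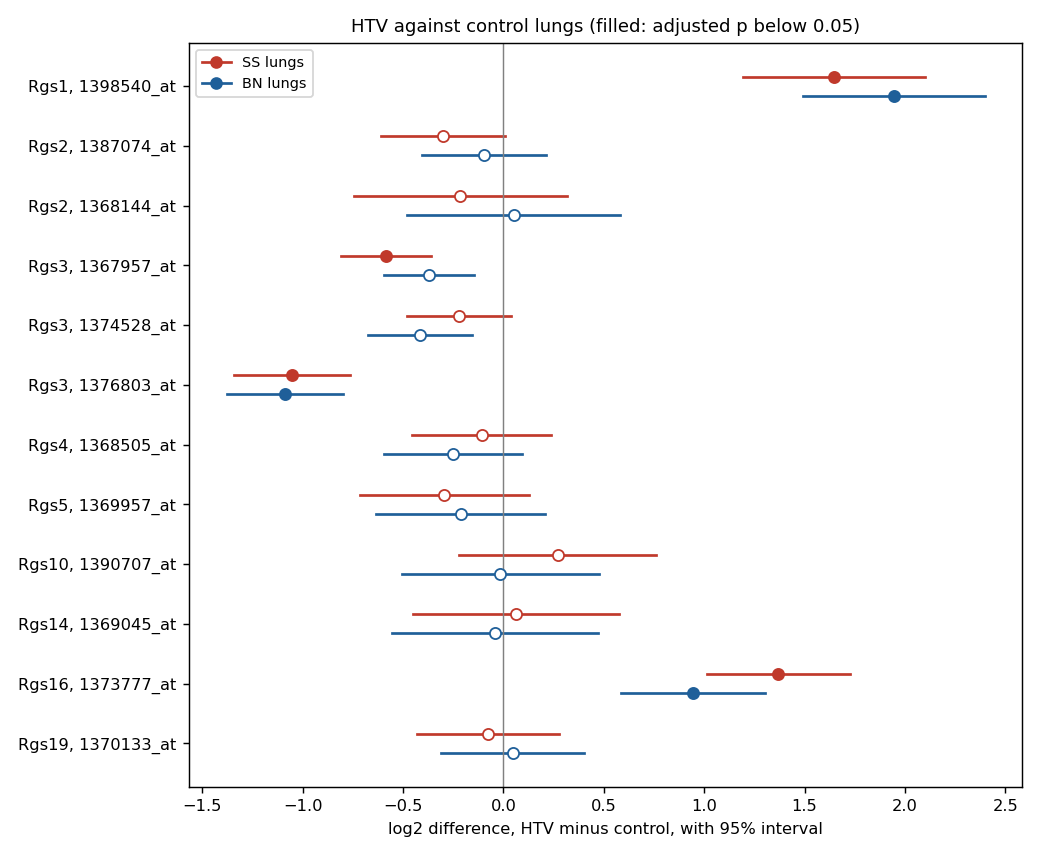
Log2 difference of HTV minus control (horizontal axis) with its 95% interval for each tested RGS probe set (rows), in SS lungs (red, upper) and BN lungs (blue, lower); filled points have an adjusted p below 0.05. Rgs1 (1.65 and 1.94) and Rgs16 (1.37 and 0.94) lie to the right of 0 and Rgs3 1376803_at (-1.05 and -1.09) to the left in SS and BN lungs, and the intervals of Rgs4, Rgs5, Rgs10, Rgs14 and Rgs19 include 0.

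Rgs3 also belongs to the R4 subfamily, acts on Gi and Gq, and is made in several isoforms of different length from several transcript starts. It has 3 probe sets on the array, and they did not change alike. The probe set 1376803_at had intensities of 66.2, 72.9 and 53.2 on the SS HTV arrays, against 152, 166.1 and 132.2 on the SS control arrays. On the BN HTV arrays it had 61, 67.3 and 77.2, against 172.4, 159.8 and 157.5 on the BN control arrays. Every HTV array lay below every control array of both strains. It fell by 1.05 ± 0.13 in SS lungs (limma adjusted p = 0.000479) and by 1.09 ± 0.13 in BN lungs (limma adjusted p = 0.000416), and passed with each array left out.

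The probe set 1367957_at of Rgs3 had 360.4, 339.8 and 318.4 on the SS HTV arrays, against 510.3, 545.6 and 494.1 on the SS control arrays. The BN HTV arrays had 332.4, 347.8 and 345.6, against 510.2, 435.2 and 400 on the BN control arrays. HTV and control arrays did not overlap in either strain. It fell by 0.58 ± 0.10 in SS lungs (limma adjusted p = 0.0046). In BN lungs the difference was -0.37 ± 0.10 and did not pass (limma adjusted p = 0.0552), but it passed without SS control 3 (limma adjusted p = 0.0423), with array weights (0.0462) and with a filter at the 60th percentile (0.0479). The third probe set, 1374528_at, had 109.1, 108.7 and 87 on the SS HTV arrays, against 113.9, 124.7 and 123.2 on the SS control arrays, and 115.8, 118.7 and 123.3 on the BN HTV arrays, against 146.6, 178.5 and 169.6 on the BN control arrays. These arrays did not overlap within a strain either. The differences of -0.22 ± 0.12 in SS lungs and -0.42 ± 0.12 in BN lungs did not pass (limma adjusted p = 0.268 and 0.0604), though the BN difference passed with array weights (0.0299) and with the beta-actin ratio as a covariate (0.0414). Averaged over the strains all 3 probe sets of Rgs3 were lower in HTV lungs, at -1.07 ± 0.09, -0.48 ± 0.07 and -0.32 ± 0.08 for 1376803_at, 1367957_at and 1374528_at (limma adjusted p = 9.18e-06, 0.00074 and 0.0214). In that average 5 of the 12 RGS probe sets passed, 2 higher and 3 lower, where 15.8% of all tested probe sets passed (7.09% higher and 8.74% lower). The call of 1374528_at was lost without SS HTV 3 (adjusted p = 0.0548), BN control 2 (0.0531) or BN control 3 (0.0523).

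Whether the 3 Rgs3 probe sets changed by unequal amounts was asked with the log2 ratio of probe sets within each array, a test chosen after their values were seen. The ratio of 1367957_at to 1376803_at was higher in HTV than in control arrays by 0.47 in SS and 0.72 in BN lungs (mean 0.60). That of 1374528_at to 1376803_at was higher by 0.83 and 0.67 (mean 0.75). Both gave p = 0.005 in a two-sided exact permutation test of arrays within strains, which is the smallest value its 400 arrangements can give, and 0.0133 after Benjamini-Hochberg adjustment over 8 such tests. So 1376803_at fell further than the other Rgs3 probe sets. The ratio of 1367957_at to 1374528_at did not differ detectably between HTV and control arrays (-0.16, exact permutation p = 0.175, adjusted 0.233). It was higher in SS than in BN arrays, by 0.20 in HTV and 0.61 in control lungs (mean 0.40, exact permutation p = 0.005, adjusted 0.0133). Which Rgs3 transcripts each probe set detects was not analysed here. Whether a probe set matches the sequence of both strains equally was not analysed either, for Rgs3 or for any other strain difference below.

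**Figure D3:**
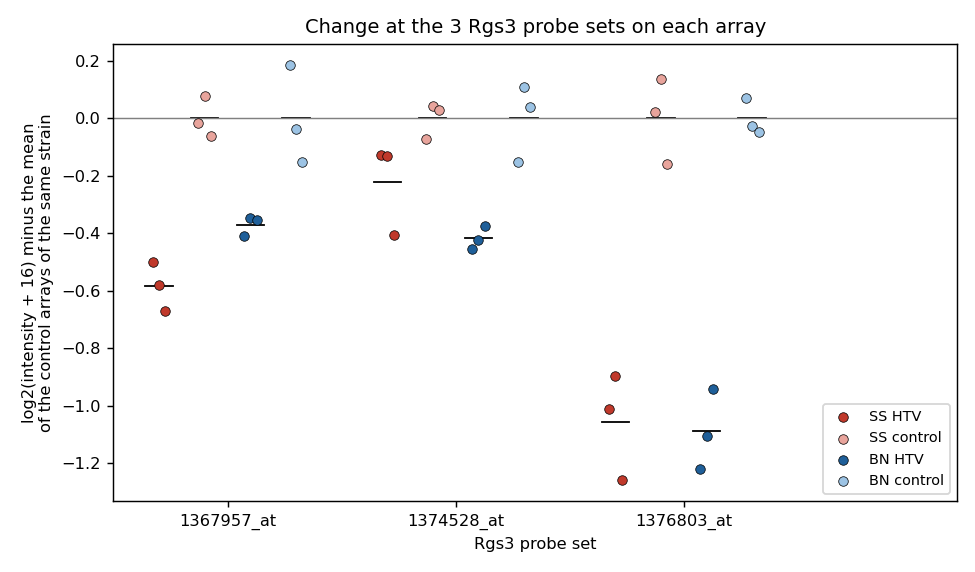
Change of the 3 Rgs3 probe sets (horizontal axis) on each array, as log2(intensity + 16) minus the mean of the control arrays of the same strain (vertical axis); points are arrays and short bars group means (n = 3). The HTV arrays lie between -1.26 and -0.90 at 1376803_at, between -0.67 and -0.35 at 1367957_at and between -0.45 and -0.13 at 1374528_at.

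Rgs2 acts preferentially on Gq and limits the action of vasoconstrictors on smooth muscle, and mice that lack it are hypertensive. It was higher in SS than in BN lungs, and no change with HTV passed the test in either strain. The probe set 1387074_at had 741.9, 658.4 and 703.1 on the SS HTV arrays, against 382.4, 472.1 and 632 on the BN HTV arrays. It had 837.8, 878.7 and 883.3 on the SS control arrays, against 566, 474.3 and 524.8 on the BN control arrays. In both conditions every SS array lay above every BN array, with SS HTV 2 and BN HTV 3 the closest pair. SS minus BN was 0.51 ± 0.14 in HTV lungs, 1.43-fold (limma adjusted p = 0.0429). That call held in 2 of the 12 fits that left out 1 array, where the difference ranged from 0.35 (without BN HTV 1) to 0.70 (without BN HTV 3). It was also lost with the run of animal numbers in the titles as a block (0.51, adjusted p = 0.0669), with no filter (0.0669), with median centring (0.0508), without the intensity trend (0.0586) and with only the arrays compared (0.0897). This block only set SS control 3 and SS HTV 3, whose numbers lie apart from the other SS arrays, against all other arrays. In control lungs SS minus BN was 0.72 ± 0.14, 1.65-fold (limma adjusted p = 0.00806), and passed with each array left out in turn, at 0.65 to 0.78.

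The other Rgs2 probe set, 1368144_at, ran with the first across the 12 arrays (r = 0.85). It had 181.3, 253.6 and 286.3 on the SS HTV arrays, against 134.4, 117.7 and 212.4 on the BN HTV arrays, where SS HTV 1 lay below BN HTV 3. It had 257.7, 311.4 and 264.5 on the SS control arrays, against 197.5, 94.2 and 159.5 on the BN control arrays, without overlap. SS minus BN was 0.60 ± 0.25 in HTV lungs and did not pass (limma adjusted p = 0.157), and it was 0.87 ± 0.25 in control lungs (limma adjusted p = 0.0366). The control-lung call of 1368144_at was lost without any 1 of SS control 1, 2 or 3 (adjusted p = 0.0571, 0.113 and 0.058) or BN control 2 or 3 (0.166 and 0.0682), with the beta-actin ratio below as a covariate (0.69, adjusted p = 0.0893), with no filter (0.0612) and with the run of animal numbers as a block (0.82, adjusted p = 0.0729). Without BN control 2 the difference was 0.60.

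RNA integrity, read from the 5-prime over 3-prime intensity ratio of beta-actin, was higher on most SS arrays than on the BN arrays, and SS HTV 1 and SS control 3 lay among the BN arrays. It was -1.02, -0.68 and -0.40 in log2 on the SS HTV arrays and -0.51, -0.23 and -1.41 on the SS control arrays. The BN HTV arrays had -1.16, -1.26 and -1.36 and the BN control arrays -0.88, -1.47 and -0.95. With this ratio as a covariate the SS minus BN difference of Rgs2 1387074_at was 0.53 in HTV lungs (limma adjusted p = 0.128), and it still passed in control lungs.

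HTV minus control for Rgs2 1387074_at was -0.30 ± 0.14 in SS lungs, with a 95% interval of -0.61 to 0.01, and -0.10 ± 0.14 in BN lungs, with an interval of -0.41 to 0.21 (limma adjusted p = 0.211 and 0.775). The 3 SS HTV arrays all lay below the 3 SS control arrays, as 15.8% of all tested probe sets did in that direction. Averaged over the strains the difference was -0.20 ± 0.10 (limma adjusted p = 0.208), and without BN HTV 3, the highest of the BN HTV arrays, it was -0.29 and passed (0.0268).

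**Figure D4:**
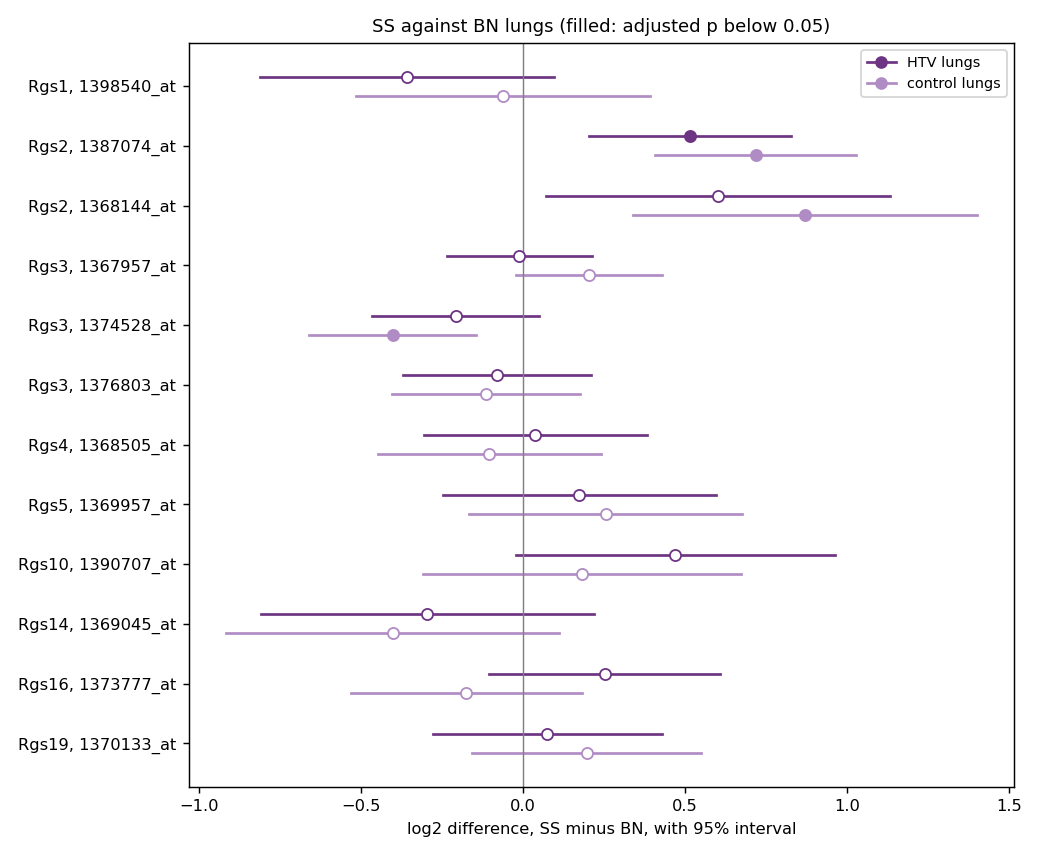
Log2 difference of SS minus BN (horizontal axis) with its 95% interval for each tested RGS probe set (rows), in HTV lungs (dark, upper) and control lungs (light, lower); filled points have an adjusted p below 0.05. Both Rgs2 probe sets lie to the right of 0 in both conditions (0.51 and 0.60 in HTV lungs, 0.72 and 0.87 in control lungs), and Rgs3 1374528_at lies at -0.40 in control lungs.

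Of the 12 RGS probe sets, 1 was higher in SS HTV than in BN HTV lungs, where 8.37% of all tested probe sets passed (3.9% higher and 4.47% lower). In control lungs 2 were higher and 1 lower in SS than in BN, where 12.3% passed (5.9% higher and 6.43% lower). Arrays did not overlap at 2 higher and 2 lower in HTV lungs, where 15.4% and 14.1% of all tested probe sets were so, and at 3 higher and 1 lower in control lungs, where 15.6% and 17.7% were so. The 1 that was lower was Rgs3 1374528_at, at -0.40 ± 0.12 (limma adjusted p = 0.0439), and its call held in 2 of the 12 fits that left out 1 array (adjusted p up to 0.174) and was lost without SS control 3 (0.0596) and with the run of animal numbers as a block (0.091). The other Rgs3 probe sets gave 0.20 ± 0.10 (1367957_at) and -0.11 ± 0.13 (1376803_at) in control lungs and did not pass. Rgs1 had -0.06 ± 0.21 and Rgs16 had -0.17 ± 0.17 between the strains in control lungs, and neither passed. In HTV lungs all 3 SS arrays were below all 3 BN arrays for Rgs1, at a difference of -0.36 ± 0.21 that did not pass (limma adjusted p = 0.336).

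The change with HTV was not shown to differ between the strains for any of the 12 probe sets. The SS change minus the BN change ranged from -0.30 (Rgs1) to 0.43 (Rgs16), 0 of 12 passed, and 0 of 12 had an unadjusted limma p below 0.05. Over all tested probe sets 0% passed this comparison, with 1547 of 18626 at an unadjusted limma p below 0.05. The SE of this difference was 0.15 to 0.35. For Rgs1 the 95% interval was -0.94 to 0.35 log2 units.

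Rgs4 and Rgs5 are known from muscle and vessel walls. Rgs4 restrains Gi and Gq signals in heart, brain and airway smooth muscle, and Rgs5 is a marker of pericytes and vascular smooth muscle. Rgs5 (1369957_at) had 118.1, 159.5 and 122.4 on the SS HTV arrays, against 153.5, 194.4 and 152.9 on the SS control arrays, and 139.9, 76.8 and 141.2 on the BN HTV arrays, against 145.3, 119 and 146.7 on the BN control arrays. HTV and control overlapped in both strains, and BN HTV 2 was the lowest. The differences were -0.30 ± 0.20 in SS and -0.21 ± 0.20 in BN lungs (limma adjusted p = 0.364 and 0.608), with intervals of -0.72 to 0.13 and -0.63 to 0.21. Rgs5 was 0.26 ± 0.20 higher in SS than in BN control lungs without overlap of the arrays, as 15.6% of all tested probe sets were, and did not pass (adjusted p = 0.409). The brighter Rgs4 probe set, 1368505_at, had 62.4, 69.4 and 55.4 on the SS HTV arrays, against 67.5, 71.4 and 66.1 on the SS control arrays, and 80.5, 56.8 and 46.9 on the BN HTV arrays, against 83.9, 65.6 and 75.3 on the BN control arrays. Its differences of -0.11 ± 0.16 and -0.25 ± 0.16 did not pass (limma adjusted p = 0.703 and 0.423). The dimmer Rgs4 probe set, 1368506_at, averaged 42.0 over the 12 arrays, just under the filter at 43.6, and was not tested. It had 41.1, 36.9 and 35.9 on the SS HTV arrays, against 29.1, 41 and 35.1 on the SS control arrays, and 42.6, 39 and 48.4 on the BN HTV arrays, against 55, 44.4 and 56 on the BN control arrays. Without the filter it gave -0.41 ± 0.14 for SS minus BN in control lungs (limma adjusted p = 0.105).

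Rgs10, Rgs14 and Rgs19 act mainly on Gi. Rgs10 restrains macrophage and microglial activation, Rgs14 carries a further domain that binds inactive alpha subunits, and Rgs19, also called GAIP, works at membranes of the trafficking pathway. None of the 3 passed limma's test in any of the 6 comparisons, and none had an unadjusted p below 0.05. Rgs10 (1390707_at) had 300.9, 285.6 and 435.2 on the SS HTV arrays, against 209.2, 250 and 393.7 on the SS control arrays, and 269.2, 219.1 and 226 on the BN HTV arrays, against 209.4, 203.3 and 323.8 on the BN control arrays. SS control 3 and BN control 3 were the highest of their groups. The differences were 0.27 ± 0.23 in SS and -0.02 ± 0.23 in BN lungs (limma adjusted p = 0.482 and 0.98), with intervals of -0.22 to 0.76 and -0.51 to 0.47. In HTV lungs Rgs10 was 0.47 ± 0.23 higher in SS than in BN without overlap, as 15.4% of all tested probe sets were, and did not pass (limma adjusted p = 0.235).

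Rgs14 (1369045_at) had 131.5, 73.2 and 135.8 on the SS HTV arrays, against 121.6, 82 and 113.6 on the SS control arrays, and 188.5, 128 and 109.2 on the BN HTV arrays, against 110.3, 164.3 and 161.2 on the BN control arrays. Its HTV differences were 0.06 ± 0.24 and -0.04 ± 0.24 (limma adjusted p = 0.89 and 0.948), and SS minus BN was -0.40 ± 0.24 in control lungs (adjusted p = 0.279). Rgs19 (1370133_at) had 123, 96.1 and 125.3 on the SS HTV arrays, against 138.3, 128.9 and 99.2 on the SS control arrays, and 132.5, 95.5 and 97.7 on the BN HTV arrays, against 106.8, 87.9 and 118.3 on the BN control arrays. All 4 groups of Rgs14 and of Rgs19 overlapped. For Rgs19 the HTV differences were -0.08 ± 0.16 and 0.05 ± 0.16, with intervals of -0.43 to 0.28 and -0.31 to 0.40.

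Across the 12 arrays Rgs1 and Rgs16 ran together (r = 0.94) and opposite to Rgs3 1376803_at (r = -0.95 and -0.97). These correlations are descriptions over arrays that share the HTV and control groups. Among 10546 other genes, the 3 most like Rgs16 were Sphk1 (r = 0.989), which encodes a sphingosine kinase, Il1r1 (0.970), an interleukin-1 receptor, and Abhd10 (0.966), a mitochondrial hydrolase. Those most like Rgs1 were the early-response factors Nr4a3 (0.971) and Fos (0.969) and the kinase gene Map3k8 (0.970). Those most like Rgs3 1367957_at were Lpar6 (0.976), a receptor for lysophosphatidic acid, Coa4 (0.950) and Pias3 (0.948), and those most like Rgs2 1387074_at were Exoc2 (0.943), the sodium-calcium exchanger Slc8a1 (0.940) and Pigx (0.933).

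Other genes with an RGS or RGS-like domain were looked at as a list. Of 14 listed, 10 had a probe set and 7 were tested. For scale, 8.06% of all tested probe sets passed for HTV in SS lungs and 5.86% in BN lungs. In SS lungs 1 rose, Axin1, by 0.42 ± 0.11 (limma adjusted p = 0.0373), with a mean intensity of 403.8 ± 20.1 in SS HTV and 297.9 ± 23.9 in SS control lungs (SD, n = 3). In BN lungs 1 fell, Axin2, at -1.38 ± 0.22 (limma adjusted p = 0.00236), with 121.9 ± 21.9 in BN HTV and 345.6 ± 71.8 in BN control lungs. Both encode scaffolds of the Wnt pathway rather than regulators of G proteins. Without SS control 3 the SS call of Axin1 was lost, and Axin2 was lower in SS lungs too. Between strains, Rgs12 was lower in SS than in BN, at -0.66 ± 0.11 in HTV lungs and -0.81 ± 0.11 in control lungs (limma adjusted p = 0.00261 and 0.000646). Rgs7, best known from neurons, was higher in SS HTV than in BN HTV lungs by 0.72 ± 0.16 (limma adjusted p = 0.0165). Rgs18, known from platelets, was higher in SS control than in BN control lungs by 0.79 ± 0.21 (limma adjusted p = 0.0308), a call lost without SS control 3.

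The G protein subunits were counted beside the 8.06% of all tested probe sets that passed in SS lungs and the 5.86% in BN lungs. In SS lungs 1 of 10 tested alpha subunits rose, Gnai2, a Gi subunit, by 0.47 ± 0.12 (limma adjusted p = 0.0319), and the call was lost without SS control 3. In BN lungs 0 of 10 alpha subunits passed limma's test, with 3 at an unadjusted p below 0.05. Of 14 beta and gamma subunits 0 passed limma's test in either strain, with 5 in SS and 4 in BN lungs at an unadjusted p below 0.05, and without SS control 3 Gng10 rose in BN lungs. Averaged over the strains, where 15.8% of all tested probe sets passed, 1 of the 10 alpha subunits rose. This was Gnai2 (0.27 ± 0.09, limma adjusted p = 0.0488), and this call too was lost without SS control 3. In BN lungs Gnai2 differed by 0.07 ± 0.12. Of the 14 beta and gamma subunits 1 rose in the average (Gng10, 0.28 ± 0.08) and 2 fell (Gnb4, -0.34 ± 0.08, and Gng5, -0.27 ± 0.07). Gng8 was higher in SS than in BN, by 1.09 ± 0.22 in HTV and 1.43 ± 0.22 in control lungs (limma adjusted p = 0.00874 and 0.00159). Among 12 effectors, the adenylyl cyclase Adcy4 was lower in BN HTV than in BN control lungs (-0.57 ± 0.12, limma adjusted p = 0.0144). Plcb1, a phospholipase C that Gq activates, was higher in SS than in BN, by 1.05 ± 0.15 in HTV and 0.91 ± 0.15 in control lungs (limma adjusted p = 0.000968 and 0.00247). Of 6 receptor kinases and arrestins, 1 fell in BN lungs, Arrb1, which uncouples active receptors from G proteins (-0.61 ± 0.14, limma adjusted p = 0.0231). Arrb1 was also lower in SS than in BN lungs, by -0.54 ± 0.14 in HTV and -0.74 ± 0.14 in control lungs. Among 6 other regulators, the small GTPase Rasd1 rose in SS lungs by 1.66 ± 0.22 (limma adjusted p = 0.000613). Gpsm1 (0.45 ± 0.12) and Ric8a (-0.36 ± 0.10) also passed in SS lungs, and both calls were lost without SS control 3. In BN lungs Rasd1 differed by 0.64 ± 0.22 and did not pass (limma adjusted p = 0.114), and the difference between the strains' changes did not pass either (adjusted p = 0.534).

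Of 23 tested receptors of vessels and airways, 4 rose and 2 fell in SS lungs, where 8.06% of all tested probe sets passed, and 3 rose in BN lungs, where 5.86% passed. Without SS control 3 the number that rose in SS lungs was 2, with the calls of F2rl2 and Adra1b lost. Adora2b, a Gs-coupled adenosine receptor, rose by 0.76 ± 0.14 in SS and 0.95 ± 0.14 in BN lungs (limma adjusted p = 0.00731 and 0.00216). F2rl2, a thrombin receptor, rose by 1.21 ± 0.29 in SS and 1.12 ± 0.29 in BN lungs (limma adjusted p = 0.0228 and 0.0388). Of the sphingosine-1-phosphate receptors, S1pr2 fell in SS lungs (-0.98 ± 0.16, limma adjusted p = 0.00287) and differed by -0.51 ± 0.16 in BN lungs (0.0842). S1pr3 rose in SS lungs (0.71 ± 0.15, limma adjusted p = 0.0105) and differed by 0.44 ± 0.15 in BN lungs (0.098). S1pr1 differed by 0.38 ± 0.12 in SS lungs (limma adjusted p = 0.0591) and rose in BN lungs (0.53 ± 0.12, adjusted p = 0.0161). Averaged over the strains all 3 passed (limma adjusted p = 0.000689, 0.00204 and 0.00206). Of 9 chemoattractant receptors, 2 rose and 1 fell in SS lungs and 1 rose and 1 fell in BN lungs. Cxcr4, a Gi-coupled chemokine receptor, fell by 1.11 ± 0.18 in SS and 0.84 ± 0.18 in BN lungs (limma adjusted p = 0.00274 and 0.0156). Its mean intensity was 349.1 ± 85.7 in SS HTV and 758.2 ± 92.1 in SS control lungs, and 423.5 ± 74.6 in BN HTV and 768.5 ± 110.9 in BN control lungs (SD, n = 3). Ackr3, which binds the same chemokine as Cxcr4 without activating G proteins, rose by 0.75 ± 0.12 and 1.15 ± 0.12 (limma adjusted p = 0.00227 and 9.5e-05).

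Markers of several cell types moved with HTV or strain. Of 7 tested neutrophil markers, 5 rose in SS and 6 in BN lungs, where 3.9% and 3% of all tested probe sets rose. The neutrophil markers had a summed intensity of 5364 to 8106 in SS HTV and 1401 to 2349 in SS control lungs. In BN lungs the sum was 2859 to 8504 in BN HTV and 922.1 to 1615 in BN control lungs. The mean of this list, centred per gene, was 1.44, 0.82 and 1.29 on the SS HTV arrays and 1.75, 1.29 and -0.32 on the BN HTV arrays, against -1.09 to -0.74 on SS control and -1.57 to -0.84 on BN control arrays. BN HTV 3, the lowest HTV array for neutrophil markers, had the highest Rgs1 intensity of all arrays (357.9). Its Rgs16 intensity (143.5) was the lowest of the BN HTV arrays, beside 158.1 and 149.7. Among the SS HTV arrays, SS HTV 2 was the lowest for neutrophil markers (0.82), for Rgs1 (173.3) and for Rgs16 (158). Without BN HTV 3 the BN rise was 1.85 (limma adjusted p = 0.000892) for Rgs1 and 0.97 (limma adjusted p = 0.0111) for Rgs16. Of 8 B and T lymphocyte markers, 3 fell in SS and 1 fell in BN lungs, where 4.16% and 2.86% of all tested probe sets fell. Cd79b differed by -1.84 ± 0.27 and -1.55 ± 0.27. Its mean intensity was 10.2 in SS HTV and 17.2 in BN HTV lungs, under the 43.64 that the filter asked of the mean over all arrays. The T-cell markers Cd3d, Cd3e, Cd3g and Cd4 did not pass in either strain. They differed by 0.03, 0.04, -0.13 and 0.31 in SS lungs and by -0.04, -0.30, -0.20 and -0.20 in BN lungs. Without SS control 3 the SS call of Ms4a1 was lost and Cd8a fell in SS lungs, and in BN lungs 2 fell, with Lck the second. The summed intensity of the 8 lymphocyte markers was 779.8 to 825.1 in SS HTV and 948.1 to 1198 in SS control lungs. In BN lungs the sum was 570.1 to 727.5 in BN HTV and 865.9 to 1025 in BN control lungs. The part of either cell type in the changes of Rgs1, Rgs16 and Rgs3 was not tested.

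**Figure D5:**
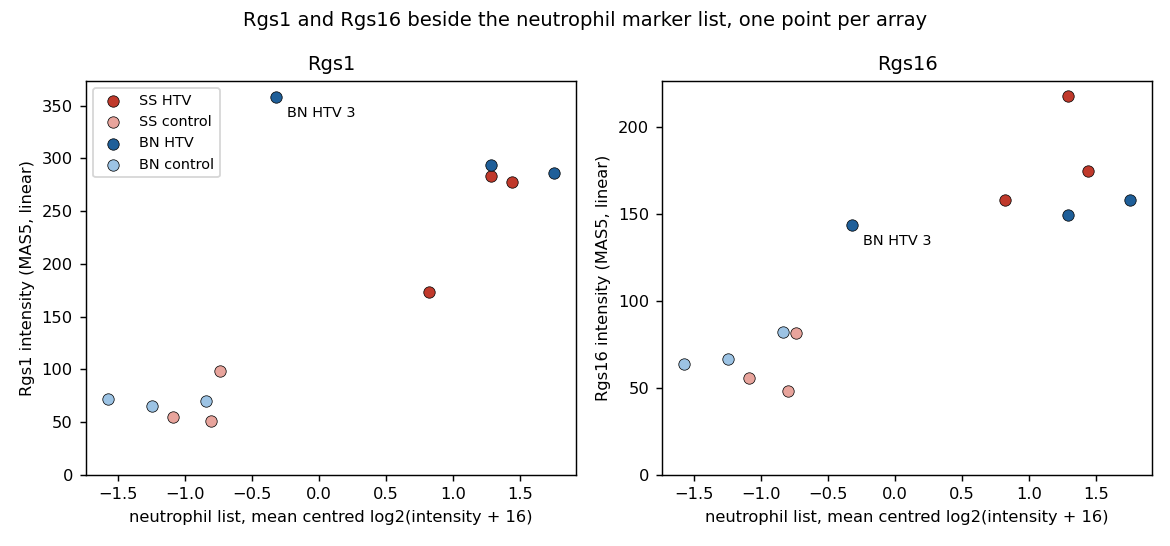
Intensity (linear scale) of Rgs1 (left) and Rgs16 (right) against the mean of 7 neutrophil markers, centred per gene on the log2(intensity + 16) scale, with one point per array and colour for the group. BN HTV 3 lies at -0.32 for the neutrophil list, with 357.9 for Rgs1 and 143.5 for Rgs16. SS HTV 2 lies at 0.82, with 173.3 for Rgs1 and 158 for Rgs16.

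Pericyte and vascular smooth muscle markers were set beside Rgs5 and Rgs2. Their summed intensity, weighted to the brightest genes, was 4540 to 5116 in SS HTV and 3223 to 4218 in SS control lungs. In BN lungs the sum was 4444 to 5012 in BN HTV and 3870 to 4277 in BN control lungs. The mean of these markers, centred per gene, was -0.44 on SS control 3, and -0.01 and -0.06 on the other SS control arrays. Of the 11, Mcam rose in both strains (0.63 ± 0.10 and 0.49 ± 0.10) and Kcnj8 in SS lungs, a call lost without SS control 3. Between strains in control lungs, Abcc9 (-0.69 ± 0.11) and Cspg4 (-0.73 ± 0.16) were lower and Tagln higher (0.59 ± 0.14) in SS, beside the higher Rgs2. Cardiac muscle markers, set beside Rgs4, were lower in SS than in BN lungs, at 3 of 8 in HTV and 7 of 8 in control lungs (5 without SS control 3). Of all tested probe sets 4.47% and 6.43% were lower in these 2 comparisons. The cardiac markers had summed intensities of 182.7 to 1217 in SS HTV, 1003 to 4436 in BN HTV, 106 to 574 in SS control and 1332 to 3000 in BN control lungs. Of 6 endothelial markers 0 passed limma's test for HTV in either strain, with 0 in SS and 1 in BN lungs at an unadjusted p below 0.05, and Pecam1 and Vwf were lower in SS in both conditions. In the average over strains 0 of the 6 passed for HTV, and without SS control 3 Kdr was lower in that average. Of 7 listed macrophage markers, 5 had a probe set and only 3 were tested. Of these 3, 0 passed for HTV in either strain and 0 had an unadjusted limma p below 0.05. Averaged over the strains 1 of the 3 had an unadjusted limma p below 0.05, and without SS control 3 Csf1r was lower in that average. Of 8 lung epithelial markers 0 passed for HTV in either strain, with 1 in SS and 2 in BN lungs at an unadjusted limma p below 0.05. In the average over strains 1 of these 8 was lower in HTV lungs, where 8.74% of all tested probe sets were. The part of these cell types in the strain difference of Rgs2 was not tested.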

How the data were processed

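Values were deposited by the authors as linear intensity per probe set, made with MAS5 per the submitters' processing notes; the sources used here give no version, settings, detection calls or scan dates. Arrays had trimmed means of 149.6 to 149.99 between the 2nd and 98th percentile and were not normalized again. Of 31099 probe sets, 57 control probe sets were left out, as were those with a mean below the 40th percentile (43.64), leaving 18626. On log2(intensity + 16), limma 3.58.1 in R 4.3.3 (lmFit, eBayes with an intensity trend) fitted 4 group means over 12 arrays, with Benjamini-Hochberg adjustment over all 18626 in each of 6 comparisons and a threshold of 0.05. The model was tested on simulated data. Genes came from the platform annotation. A gene with several tested probe sets in a list or a likeness search was represented by the brightest. Every RGS probe set is named, with the 3 most correlated genes for members described by likeness and up to 4 genes of smallest p from each list and comparison. Cd3d, Cd3e, Cd3g and Cd4 are named besides these. Members and lists were chosen with earlier results of these data known. Promoters are RefSeq's (GRCr8), and motifs were searched in the 250 bases before the start. Alternatives covered the filter, pseudocount, scaling, trend, array weights, a block, a covariate and left-out arrays.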

Additional observations from a re-analysis of the deposited data

How the results depend on the processing

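RGS values were refitted under 12 alternatives and with each of the 12 arrays left out in turn. Fitting only the arrays compared was not applied to the average over strains or to the difference between the strains' changes, and the stricter filter removed Rgs4 1368505_at. None of these changed the sign of a called value. The rises of Rgs1 and Rgs16 and the fall of Rgs3 1376803_at passed under all of those run in both strains. The number of RGS probe sets higher or lower in SS than in BN HTV lungs, 1 as reported, was 0 with no filter, with median centring, without the intensity trend, with only the arrays compared, with the beta-actin ratio as a covariate or with the run of animal numbers as a block, and 0 to 1 with 1 array left out. In control lungs the number, 3 as reported, was 1 with no filter, with the block and with the covariate, and 1 to 3 with 1 array left out. For HTV in BN lungs it was 5 with array weights, against 3 as reported, and 3 to 4 with 1 array left out. The cause of these moves was not tested. The share of all tested probe sets that passed under each of these fits is not given here, so these counts cannot be set beside it. For single probe sets, 16 calls were lost and 5 gained across the other alternatives, and 28 lost and 2 gained across left-out arrays. No paired analysis was possible because the titles give each animal its own number and the groups share none. The block above set SS control 3 and SS HTV 3 apart from all other arrays and paired none. It made no adjustment for animal numbers within BN lungs. With 3 arrays a group and no detection calls, small differences of dim probe sets such as Rgs4 cannot be told from noise.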
